A study of Homo sapiens with 36 samples.

Results

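The interleukin-1 family genes described here were IL1A, IL1B, IL1RN, IL18, IL1RAP, IL1R1, IL1R2 and IL18BP, 8 of the 57500 genes in the count files, chosen by their symbols and matched to Ensembl IDs. They were measured by RNA sequencing of polyadenylated RNA in THP-1 cells, a human monocytic line of leukaemic origin. Lentiviral particles had given the cells a non-target short hairpin RNA (shNT) or a short hairpin RNA against the nuclear receptor NR4A2 (shNR4A2) or NR4A3 (shNR4A3), so the shNT controls had also been transduced. Each line was held for 4 h at 5% or 10% CO2 in pH-buffered medium, and LPS, a bacterial stimulus of Toll-like receptor signalling, was either left out or present at 2.5 µg/mL for the last 2 h. These 3 lines, 2 CO2 levels and 2 LPS states make 12 conditions, with 3 libraries in each and 36 in all. The study describes its sequencing data as coming from individual experiments, and the labels do not say which library belongs to which experiment or whether a line is a clone or a pool of cells. The p-values measure the spread between the 3 libraries of a condition.

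Total counts were 16171161 to 23929138 per library (median 19639071). Libraries of 1 condition were further apart than counting error allows, with a chi-square over genes of 5.98 to 26.2 per degree of freedom. The summed TPM of 9 monocytic markers was 872.6 to 2293 per library, against at most 1.791 for T cell, 6.768 for B cell, 2.004 for epithelial and 1.962 for fibroblast markers. NR4A2 was lower in shNR4A2 than in shNT cells in all 4 matched conditions, at 0.3147 to 0.5308 of the shNT level. NR4A3 was lower in shNR4A3 cells in 3 of 4 matched conditions, at 0.1802 to 0.5663 of the shNT level, and at 10% CO2 without LPS the ratio was 0.761 and was not called (adjusted p = 0.7355, edgeR's quasi-likelihood test), so the targeted gene does not check that label. The ratios of 0.1802 (5% CO2) and 0.761, both without LPS, rest on few NR4A3 counts per library. These were 1 to 5 and 6 to 8 in shNR4A3 cells against 17 to 21 and 6 to 14 in shNT cells. With LPS at 10% CO2, NR4A3 was also 1.481-fold higher in shNR4A2 cells and NR4A2 was 0.7994 of the shNT level in shNR4A3 cells (adjusted p = 0.002955 and 0.01659), so each line differed there in the other receptor too.

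The interleukin-1 cytokines are alarm signals of innate immunity. IL-1α and IL-1β bind the receptor IL1R1, which pairs with the accessory protein IL1RAP and signals through MYD88 to NF-κB, while the antagonist encoded by IL1RN occupies IL1R1 without signalling and IL1R2 is a decoy without a signalling domain. IL-18 has its own receptor pair and is held in check by the soluble binding protein IL18BP. IL-1β and IL-18 are made as precursors and cut by caspase-1 in inflammasomes, so the transcript is only the first step to an active cytokine, and monocytes are known for raising IL1B transcription quickly after LPS.

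In GRCh38, 5 of the members lie on chromosome 2. These are IL1R2 (ENSG00000115590, 101991844 to 102028544, plus strand), IL1R1 (ENSG00000115594, 102064544 to 102179874, plus), IL1A (ENSG00000115008, 112773915 to 112784590, minus), IL1B (ENSG00000125538, 112829751 to 112836903, minus) and IL1RN (ENSG00000136689, 113107214 to 113134016, plus). IL18 (ENSG00000150782, 112143251 to 112164117, minus) and IL18BP (ENSG00000137496, 71998541 to 72005715, plus) lie on chromosome 11, and IL1RAP (ENSG00000196083, 190514051 to 190659750, plus) on chromosome 3. Of the exonic bases of IL18BP, 675 (15.6%) are shared with NUMA1 on the other strand, which had a median count of 3108. The strand setting of the counting is not given in the sources used here, so reads from those bases cannot be assigned with certainty and IL18BP values are uncertain to that extent.

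The promoter sequences of the 3 genes that moved most between conditions or lines, IL1A, IL1B and IL1RN, and of IL1RAP, the member that moved with CO2, are shown for comparison, as the 250 bases before a transcription start in RefSeq (GRCh38.p14). Capitals mark matches to TTNNGNAA, a core motif of the C/EBP factors of myeloid cells, on either strand. The windows are chr2:112784494-112784743 (minus strand, the more upstream of the IL1A starts), chr2:112836780-112837029 (minus, IL1B), chr2:113127239-113127488 (plus, 1 of 3 IL1RN starts) and chr3:190513835-190514084 (plus, IL1RAP).
IL1A: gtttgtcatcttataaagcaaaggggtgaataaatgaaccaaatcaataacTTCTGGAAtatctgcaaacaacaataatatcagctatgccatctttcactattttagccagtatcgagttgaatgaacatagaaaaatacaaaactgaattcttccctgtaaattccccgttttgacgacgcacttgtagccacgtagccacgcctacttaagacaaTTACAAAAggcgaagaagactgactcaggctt
IL1B: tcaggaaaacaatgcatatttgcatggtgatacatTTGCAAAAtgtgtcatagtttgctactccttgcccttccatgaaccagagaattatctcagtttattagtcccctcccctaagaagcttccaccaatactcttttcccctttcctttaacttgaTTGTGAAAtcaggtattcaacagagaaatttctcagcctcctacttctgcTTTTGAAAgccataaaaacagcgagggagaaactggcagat
IL1RN: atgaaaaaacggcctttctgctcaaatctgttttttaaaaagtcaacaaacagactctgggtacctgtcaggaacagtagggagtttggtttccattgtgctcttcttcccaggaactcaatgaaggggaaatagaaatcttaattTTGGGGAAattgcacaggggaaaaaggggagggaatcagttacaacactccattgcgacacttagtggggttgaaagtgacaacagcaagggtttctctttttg
IL1RAP: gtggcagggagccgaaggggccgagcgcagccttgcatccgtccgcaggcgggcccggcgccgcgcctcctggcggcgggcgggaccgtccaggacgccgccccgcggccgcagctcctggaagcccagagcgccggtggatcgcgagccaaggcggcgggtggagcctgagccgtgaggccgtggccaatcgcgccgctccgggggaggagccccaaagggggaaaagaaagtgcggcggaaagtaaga

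The IL1A window held 2 such matches, at -199 to -192 and -32 to -25 from the start, the IL1B window 3, at -215 to -208, -91 to -84 and -41 to -34, the IL1RN window 1, at -104 to -97, and the IL1RAP window 0. Of 35093 RefSeq windows of this length, 33.2% held at least 1. The windows shown for IL1A, IL1B and IL1RN were 37.6%, 40.0% and 42.0% G and C and that of IL1RAP was 74.8%, while windows before the other starts were 42.0% for IL1A and 59.6% and 48.4% for IL1RN. Over the 17 windows of the 7 members with an entry the C/EBP letters matched in 10. Windows of the same gene can share bases, as those of IL1A do, so a site can be counted in more than 1 window. The NBRE of the NR4A receptors (AAAGGTCA) was searched on both strands as well and was found in 0 of the 17 windows, against 1.05% of all windows. The AP-1 motif (TGANTCA) matched in 3 of the 17 (6.57% of all), among them the IL1A window shown, the TATA box letters (TATAAA) in 4 (10.7%) and the NF-κB motif in 1, of IL1R2 (9.95%). In the windows shown no C/EBP match overlapped a match to another motif. A match is a description of letters in these windows and not a measured binding site.

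Levels between genes are compared as TPM, which corrects for gene length. Without LPS the median TPM over 18 libraries was 36.43 for IL1RN (19.51 to 41.89), 24.16 for IL1B (11.29 to 38.18), 20.95 for IL1RAP (15.66 to 27.01), 14.79 for IL18 (10.5 to 17.77), 6.215 for IL18BP (5.097 to 8.544), 2.053 for IL1R1 (1.143 to 3.321) and 1.202 for IL1A (0.2754 to 2.328). The first 4 overlapped with their neighbours in that order, as did IL1R1 and IL1A, while IL18 lay above IL18BP and IL18BP above IL1R1 in every library. This order pools the 3 lines. In shNT cells without LPS the mean TPM of IL1RN and IL1B was 23.3 and 24.33 at 5% CO2. At 10% CO2 it was 22.71 and 21.21. With LPS the order changed. IL1B had a median of 5096 TPM (3670 to 7943) and IL1A of 375.4 TPM (267.2 to 617.1), each above the next gene in every library, followed by IL1RN at 41.35 (17.19 to 68.32), IL1RAP at 18.39 (12.38 to 26.46), IL18 at 13.48 (10.05 to 16.78), IL18BP at 4.41 (3.237 to 6.858) and IL1R1 at 2.189 (1.729 to 3.381). IL1RN, IL1RAP and IL18 overlapped as neighbours with LPS, and so did IL18BP and IL1R1. By its mean TPM in a condition IL1B ranked between 13 and 26 of all genes with LPS and between 4962 and 7048 without it.

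IL1R2, the decoy receptor, was barely detected, with 0 to 4 counts in libraries without LPS and 0 to 12 with LPS. It did not pass the filter on low counts, so no fold change is given for it, and 7 members were tested. In shNT cells at 10% CO2 without LPS all 3 libraries had 0 counts, which allows up to 3 counts each.

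**Figure D1:**
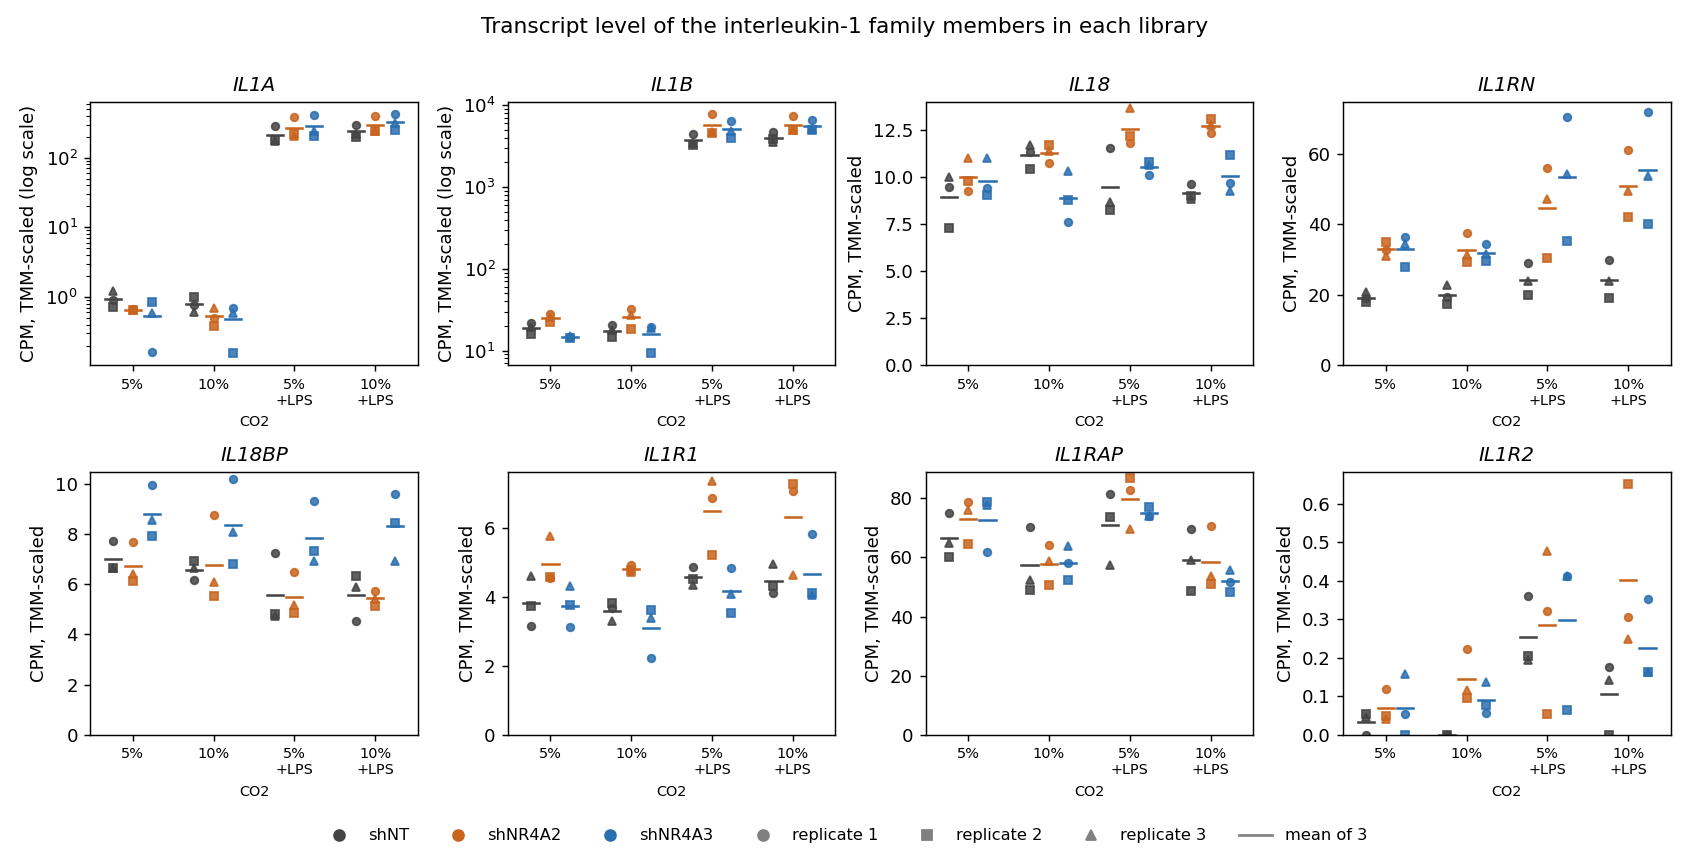
Counts scaled to library size with TMM factors (TMM-scaled CPM) of each member by CO2 level and LPS, with 1 point per library, coloured by line and shaped by replicate number, and a bar at the mean of 3. The axes are logarithmic for IL1A and IL1B only. These genes show the large step with LPS, IL1RN is higher in both knockdown lines, and IL1RAP is lower at 10% CO2.

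The first comparison asks what LPS did to the family, in each line and at each CO2 level. IL1A and IL1B rose in all 6 comparisons, by log2 fold changes of 7.81 to 9.52 and 7.63 to 8.47. Of the other 5 tested members, IL1RN rose in 2 comparisons and IL1R1 in 1, and IL18, IL1RAP and IL18BP were not called in any. A gene is called here at a Benjamini-Hochberg adjusted p under 0.05 over 17720 genes by edgeR's quasi-likelihood test, and fold changes are on TMM-scaled CPM.

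Over all 17720 genes tested, 11.2% were called as higher and 11.6% as lower with LPS in shNT cells at 5% CO2, and 15.1% and 16.1% at 10% CO2. In shNR4A2 cells these shares were 8.91% and 9.26% at 5% CO2 and 16.5% and 18.5% at 10% CO2. In shNR4A3 cells they were 11.9% and 13.4% at 5% CO2 and 20.6% and 21.5% at 10% CO2. Of the 7 tested members 2 to 4 were called as higher in each comparison, and 0 as lower by edgeR or DESeq2, also at an unadjusted p under 0.05 by edgeR.

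IL1A, which encodes IL-1α, went in shNT cells at 5% CO2 from 0.8969, 0.711 and 1.195 CPM to 285.1, 178.1 and 171.9 CPM with LPS. In shNR4A3 cells at 10% CO2 it went from 0.6885, 0.1562 and 0.5955 CPM to 424.2, 252.4 and 314.7 CPM. No library without LPS came near any library with LPS. The log2 fold changes of IL1A were 7.81 (SE 0.318) and 8.25 (SE 0.205) in shNT cells, 8.66 and 9.09 in shNR4A2 cells and 9.06 (SE 0.458) and 9.52 (SE 0.397) in shNR4A3 cells, at 5% and 10% CO2. The largest adjusted p of the 6 was 1.142e-05. The starting level rests on 3 to 26 counts per library, so the size of the IL1A fold change is less certain than that of IL1B.

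IL1B, which encodes IL-1β, had 21.8, 15.92 and 19.34 CPM in shNT cells at 5% CO2 and 4500, 3248 and 3485 CPM with LPS. At 10% CO2 the shNT values were 20.38, 14.63 and 17.72 CPM, and 4659, 3865 and 3583 CPM with LPS. Again the 2 groups were far apart in every line and at both CO2 levels. The log2 fold changes were 7.63 (SE 0.175) and 7.85 (SE 0.151) in shNT, 7.81 and 7.81 in shNR4A2, and 8.44 (SE 0.208) and 8.47 (SE 0.387) in shNR4A3 cells, with adjusted p of at most 2.68e-05.

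IL1RN, the receptor antagonist, moved far less. In shNR4A2 cells at 10% CO2 it had 37.41, 29.28 and 31.34 CPM without and 61.18, 41.97 and 49.55 CPM with LPS, a log2 fold change of 0.65 (SE 0.138, adjusted p = 0.00199). In shNR4A3 cells at 10% CO2 it had 34.37, 29.63 and 31.65 CPM without and 71.98, 40.19 and 53.81 CPM with LPS, a log2 fold change of 0.81 (SE 0.194, adjusted p = 0.01103). In both cases the lowest library with LPS lay above the highest without, as it did for 22% of all tested genes in shNR4A2 and 24.4% in shNR4A3 cells. In the other 4 comparisons the groups overlapped and IL1RN was not called, with log2 fold changes of 0.35 and 0.30 in shNT cells at 5% and 10% CO2 (adjusted p = 0.07645 and 0.1459), 0.44 in shNR4A2 (adjusted p = 0.122) and 0.69 in shNR4A3 cells at 5% CO2 (adjusted p = 0.06829). With the replicate number as a block, where the numbers pair the libraries, IL1RN was called as higher in shNT cells at 10% CO2 (0.29, adjusted p = 0.02927) and in shNR4A3 cells at 5% CO2 (0.66, adjusted p = 0.0002216). Whether the numbers pair was judged from these same counts, so p-values of blocked fits, here and below, may be too small. IL1RN in shNR4A3 cells at 5% CO2 was also called without the block by DESeq2 (0.71, adjusted p = 0.0037), without a filter (adjusted p = 5.141e-07), with the filter at 1 CPM (adjusted p = 0.03071) and in 1 fit to all libraries (adjusted p = 0.01832). The TPM of IL1RN relative to that of IL1B had a median of 1.19 (0.8256 to 3.02) in the 18 libraries without LPS and of 0.007793 (0.004685 to 0.01069) in the 18 with LPS. Without LPS the mean ratio at 5% and 10% CO2 was 0.9691 and 1.082 in shNT cells. It was 1.251 and 1.235 in shNR4A2 and 2.146 and 2.087 in shNR4A3 cells.

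IL1R1, the signalling receptor, was called in shNR4A3 cells at 10% CO2 alone, where it went from 2.238, 3.631 and 3.389 CPM to 5.826, 4.117 and 4.064 CPM (log2 fold change 0.59, SE 0.219, adjusted p = 0.04399). That call was lost with library size as the only scaling, with DESeq2, and without shNR4A3 10% CO2 replicate 1 or replicate 3 or shNR4A3 10% CO2 + LPS replicate 1, where the adjusted p reached 0.1869. The other 5 log2 fold changes of IL1R1 were 0.16 to 0.40, and were not called. Whether the shNR4A3 value differs from the shNT value was tested as an interaction (0.26, adjusted p = 0.8805).

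The accessory receptor IL1RAP had log2 fold changes with LPS of -0.14 to 0.12, IL18 of -0.28 to 0.32 and IL18BP of -0.32 to 0.02, and 0 of these 18 values were called by edgeR or by DESeq2, with 0 of 18 at an unadjusted p under 0.05 by edgeR. In shNT cells at 10% CO2 every library with LPS had less IL18 than every library without, as held for 23.2% of all tested genes. Blocking on the replicate number called IL1RAP as lower in shNR4A3 cells at 10% CO2 (-0.14, adjusted p = 0.03919). With library size as the only scaling, which put the median of all genes at -0.253 to -0.181, IL18 in shNT (-0.50), IL18BP in shNR4A2 (-0.55) and IL1RAP in shNR4A3 cells (-0.40), all at 10% CO2, were called as lower.

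**Figure D2:**
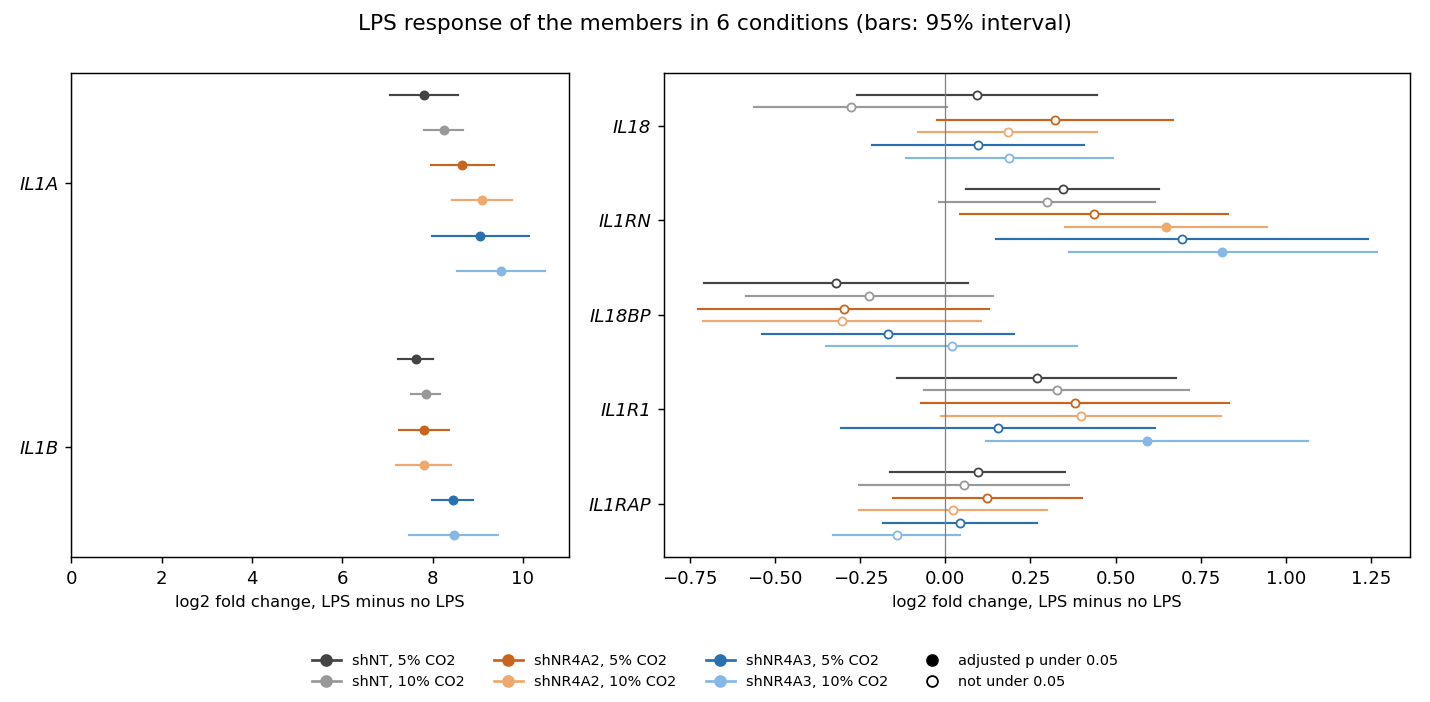
Log2 fold change with LPS of the 7 tested members in the 6 conditions, IL1A and IL1B on the left and the others on the right with a different horizontal scale; points are estimates, bars 95% intervals, and filled points have an adjusted p under 0.05. IL1A and IL1B lie between 7.63 and 9.52, and the other values between -0.32 and 0.81.

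The second comparison asks how the members differed between a knockdown line and shNT cells under the same CO2 and LPS. IL1RN was higher in both knockdown lines, by 1.601-fold to 2.288-fold over the 8 comparisons, and was called in 6 of them. In all 8 every knockdown library lay above every shNT library. Over all genes tested that was so for 12.3%, 12.8%, 13.1% and 17.7% in shNR4A2 cells (5% and 10% CO2 without LPS, then 5% and 10% with LPS) and for 12.2%, 12%, 12.7% and 15.6% in shNR4A3 cells. IL1B was called as higher in both lines at 10% CO2 with LPS, IL18 in shNR4A2 and IL18BP in shNR4A3 cells in that condition, and IL1A, IL1R1 and IL1RAP were not called in any of the 8. The comparisons of the lines use the same shNT libraries, so they are not independent of each other. Each knockdown comes as a line of its own, so the knockdown and other differences between lines cannot be told apart. The p-values do not measure the spread between separately transduced lines.

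The share of all tested genes called between shNR4A2 and shNT cells was 5.69% at 5% and 7.95% at 10% CO2 without LPS, and 6.21% and 18.9% with LPS. Between shNR4A3 and shNT cells it was 6.19% and 6.85% without LPS, and 5.41% and 14.5% with LPS. Of the 7 tested members 1 was called in each of the 4 comparisons without LPS, 0 in both at 5% CO2 with LPS (4 in shNR4A2 and 2 in shNR4A3 cells at an unadjusted p under 0.05, and 2 and 1 by DESeq2) and 3 in both at 10% CO2 with LPS.

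Without LPS at 5% CO2, IL1RN had 18.93, 17.83 and 20.68 CPM in shNT, 32.79, 34.82 and 30.99 CPM in shNR4A2 and 36.49, 27.78 and 34.42 CPM in shNR4A3 cells. The log2 fold changes were 0.78 (SE 0.115, adjusted p = 0.001956) in shNR4A2 and 0.78 (SE 0.122, adjusted p = 0.0008791) in shNR4A3 cells. At 10% CO2 the shNT level was 19.39, 17.25 and 22.73 CPM, and the log2 fold changes were 0.72 (SE 0.137, adjusted p = 0.001697) and 0.68 (SE 0.118, adjusted p = 0.001382). In 1 fit to all 36 libraries the latter had an adjusted p of 0.07866. Here the NR4A3 transcript itself was not called as lower in shNR4A3 cells.

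With LPS at 10% CO2, IL1RN had 29.75, 19.04 and 23.87 CPM in shNT cells against 61.18, 41.97 and 49.55 CPM in shNR4A2 cells, a log2 fold change of 1.06 (SE 0.175, adjusted p = 0.003417). In shNR4A3 cells it had 71.98, 40.19 and 53.81 CPM, a log2 fold change of 1.19 (SE 0.259, adjusted p = 0.03292). The latter call was lost without shNT 10% CO2 + LPS replicate 2 or replicate 3 or shNR4A3 10% CO2 + LPS replicate 3, where the adjusted p reached 0.09921. At 5% CO2 with LPS the shNT level was 28.85, 19.74 and 23.98 CPM, that of shNR4A2 cells 55.99, 30.53 and 47.29 CPM and that of shNR4A3 cells 70.46, 35.17 and 54.27 CPM. The groups did not overlap, but the replicates spread widely and the adjusted p was 0.05201 in shNR4A2 (log2 fold change 0.89, SE 0.222) and 0.0609 in shNR4A3 cells (1.14, SE 0.264). With the replicate number as a block, which pairs the libraries in both, these were 0.87 (adjusted p = 1.934e-12) and 1.11 (adjusted p = 9.533e-07), and DESeq2 without the block gave adjusted p of 0.001593 and 8.45e-06. The block was chosen from the same counts, so its p-values may be too small. Library size as the only scaling, no filter, the filter at 1 CPM and 1 fit to all libraries called IL1RN in both lines as well, with adjusted p of 1.476e-09 to 0.04975 in shNR4A2 and 4.423e-06 to 0.03163 in shNR4A3 cells. The lowest value in each line came from the fit without a filter. All these are refits that share the same libraries, so they are no independent evidence.

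IL1B with LPS at 10% CO2 had 4659, 3865 and 3583 CPM in shNT, 7371, 4999 and 4953 CPM in shNR4A2 and 6532, 4966 and 5095 CPM in shNR4A3 cells. The log2 fold changes were 0.51 (SE 0.157, adjusted p = 0.04926) and 0.46 (SE 0.123, adjusted p = 0.03262). All knockdown libraries lay above all shNT libraries, but each call was lost in 3 of the 6 fits that left out a library, with adjusted p up to 0.1446 in shNR4A2 (without shNT 10% CO2 + LPS replicate 2 or 3 or shNR4A2 10% CO2 + LPS replicate 3) and 0.1168 in shNR4A3 cells (without shNT 10% CO2 + LPS replicate 2 or 3 or shNR4A3 10% CO2 + LPS replicate 1). Without LPS the 2 lines were on opposite sides of shNT cells at 5% CO2, at 28.05, 22.38 and 25.38 CPM in shNR4A2 and 14.64, 14.12 and 14.9 CPM in shNR4A3 against 21.8, 15.92 and 19.34 CPM in shNT cells. Neither difference was called (0.41, adjusted p = 0.1163 and -0.39, adjusted p = 0.107), and with the replicate number as a block both were (0.42, adjusted p = 0.002413 and -0.38, adjusted p = 0.03115). Both calls at 10% CO2 with LPS were also lost in 1 fit to all libraries, and that of shNR4A2 without a filter. At 10% CO2 without LPS the values were 0.56 (adjusted p = 0.0617) and -0.15 (adjusted p = 0.8304).

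IL18 in shNR4A2 cells with LPS at 10% CO2 had 12.37, 13.12 and 12.76 CPM against 9.624, 8.988 and 8.841 CPM in shNT cells, a log2 fold change of 0.48 (SE 0.115, adjusted p = 0.01204). Without shNT 10% CO2 + LPS replicate 3 the adjusted p was 0.05651. Its inhibitor IL18BP had 9.593, 8.45 and 6.937 CPM in shNR4A3 against 4.519, 6.327 and 5.91 CPM in shNT cells in the same condition, a log2 fold change of 0.57 (SE 0.177, adjusted p = 0.04437). This call was lost with DESeq2, with library size as the only scaling and in 4 of 6 fits that left out a library, shNT 10% CO2 + LPS replicate 1 or 3 or shNR4A3 10% CO2 + LPS replicate 1 or 2, with adjusted p up to 0.141.

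IL1A was not called between lines in the unblocked fits. Its log2 fold changes were -0.82 to -0.52 without LPS, where a library held 3 to 26 counts, and 0.28 to 0.46 with LPS. IL1R1 gave 0.38 to 0.51 in shNR4A2 and -0.21 to 0.06 in shNR4A3 cells, and IL1RAP -0.19 to 0.18 in both. The replicate number as a block called, with LPS, IL1A as higher in both lines at 5% CO2 (0.32, adjusted p = 0.0002177 and 0.41, adjusted p = 0.0005454) and 10% CO2 (0.27, adjusted p = 0.0001625 and 0.45, adjusted p = 1.926e-05). It also called IL1B in both lines at 5% CO2 with LPS (0.58, adjusted p = 4.17e-07 and 0.42, adjusted p = 0.0004937). In shNR4A2 cells with LPS it called IL18 at 5% CO2 (0.42, adjusted p = 0.01061) and IL1R1 at 5% and 10% CO2 (0.50, adjusted p = 0.01789 and 0.47, adjusted p = 0.02156). In shNR4A3 cells it called IL18BP at 5% CO2 with LPS (0.50, adjusted p = 0.02113). In all 6 LPS conditions replicate 1 had the highest IL1A, IL1B and IL1RN level of the 3 libraries.

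**Figure D3:**
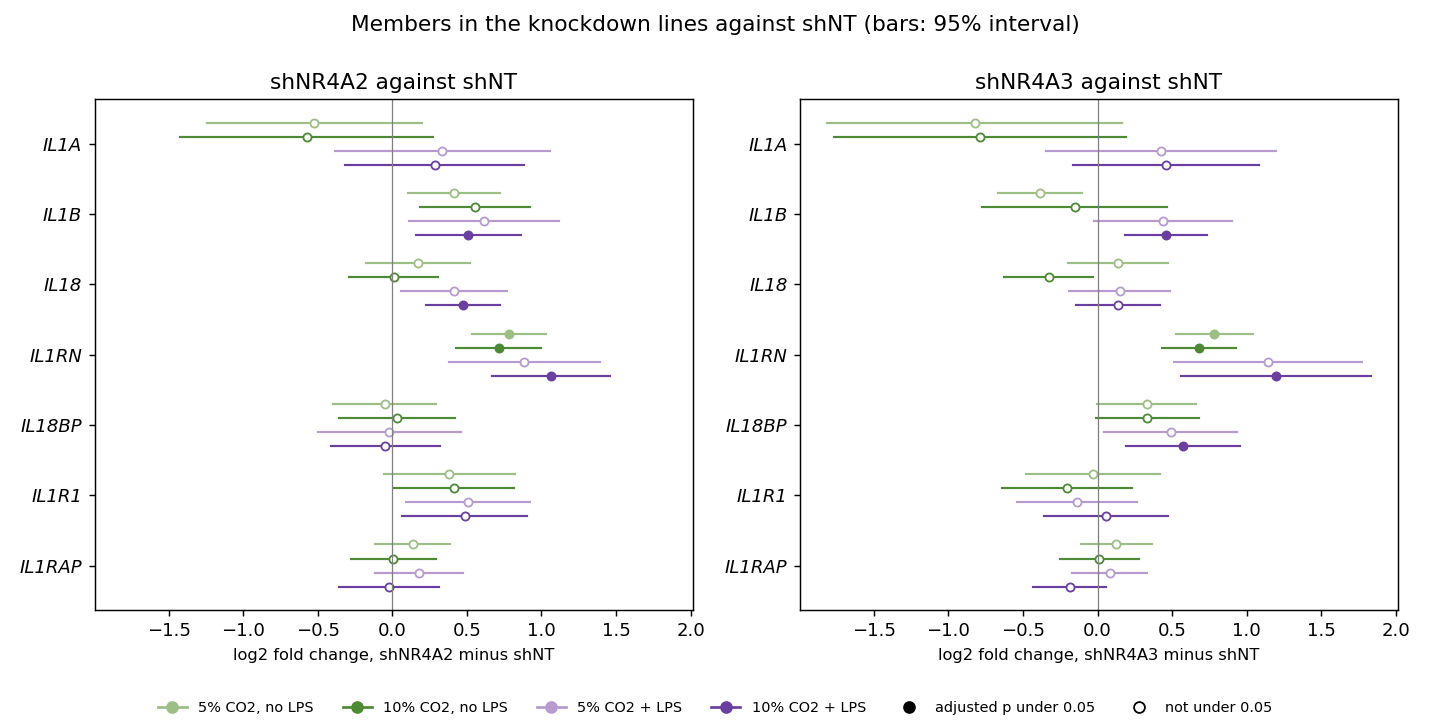
Log2 fold change of each tested member in shNR4A2 (left) and shNR4A3 cells (right) against shNT cells at 5% and 10% CO2 with and without LPS; points are estimates, bars 95% intervals, and filled points have an adjusted p under 0.05. IL1RN lies between 0.68 and 1.19 in every comparison.

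The third comparison asks whether 4 h at 10% CO2 changed the members. IL1RAP was lower at 10% CO2, with log2 fold changes over the 3 lines of -0.29 without LPS and -0.41 with it, and was the only member called over the 3 lines in the fit without a replicate block. The inducible genes IL1A and IL1B were not called in that fit, and neither were IL1RN, IL18, IL1R1 and IL18BP. Fits over the 3 lines take all their libraries as independent. Same-numbered libraries of different lines were correlated in 7 of 8 line comparisons (r from 0.276 to 0.726). The intervals and p-values of fits over the 3 lines may therefore be too narrow.

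Over the 3 lines, 9.18% of all tested genes were called as higher and 8.72% as lower at 10% CO2 without LPS, and 15.3% and 15.5% with LPS. Of the 7 tested members 1 was called as lower in each. Within lines the share of genes called in either direction was 0.615% in shNT, 0.0113% in shNR4A2 and 1.13% in shNR4A3 cells without LPS, and 8.19%, 0.198% and 2.13% with LPS. These shares are by edgeR, and the study gives more differentially expressed genes in each of these comparisons, by DESeq2. A low share here is therefore no evidence that a line did not respond to CO2. By edgeR, 0 members were called within any line except IL1RAP in shNR4A3 cells with LPS. DESeq2 gave the same counts, and 1 member had an unadjusted p under 0.05 by edgeR in every within-line comparison except shNT with LPS, where there were 0. That member was IL18 in shNT cells without LPS (0.33, adjusted p = 0.3249) and IL1RAP in the others.

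IL1RAP, the shared accessory chain of IL-1 receptors, had with LPS 81.41, 73.69 and 57.6 CPM at 5% and 69.66, 48.66 and 59.0 CPM at 10% CO2 in shNT cells. In shNR4A2 cells these were 82.79, 87.05 and 69.67 CPM against 70.5, 50.97 and 53.79 CPM. In shNR4A3 cells they were 73.94, 77.11 and 74.14 CPM against 51.73, 48.26 and 55.65 CPM. The groups overlapped in shNT and, by 1 library, in shNR4A2 cells, and were separate in shNR4A3 cells, where 13.1% of all tested genes were lower in every 10% CO2 library. Over the 3 lines, with the line as a term, the log2 fold change was -0.41 (SE 0.081, 95% interval -0.58 to -0.24, adjusted p = 0.0006715). By line it was -0.26 (SE 0.153, adjusted p = 0.3375) in shNT, -0.46 (SE 0.132, adjusted p = 0.1365) in shNR4A2 and -0.53 (SE 0.084, adjusted p = 0.01974) in shNR4A3 cells. The last call was lost without shNR4A3 10% CO2 + LPS replicate 1 or replicate 2, with adjusted p up to 0.1262.

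Without LPS, IL1RAP had 74.98, 60.05 and 64.97 CPM at 5% and 70.34, 49.13 and 52.36 CPM at 10% CO2 in shNT cells. The shNR4A2 libraries had 78.74, 64.58 and 75.99 CPM against 64.18, 50.73 and 58.65 CPM, and those of shNR4A3 61.73, 78.9 and 77.82 CPM against 57.95, 52.47 and 63.71 CPM. The 10% CO2 libraries were all lower than the 5% libraries in shNR4A2 cells, as for 7.36% of all tested genes, and the groups overlapped in the other two. The log2 fold change over the 3 lines was -0.29 (SE 0.073, 95% interval -0.44 to -0.14, adjusted p = 0.007295). By line it was -0.21, -0.34 and -0.32 in shNT, shNR4A2 and shNR4A3 cells, with adjusted p of 0.4809, 0.4876 and 0.1292. With the replicate number as a block, which pairs the libraries in shNR4A2 cells without LPS, the adjusted p there was 0.03108. Both calls over the 3 lines held in each of the 18 fits that left out a library. Fewer cells expressing a transcript and less of it per cell cannot be told apart in bulk RNA.

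For the other members the interval over the 3 lines gives a range for the CO2 difference, which may be too narrow as said above. With LPS it was -0.20 to 0.58 for IL1A (log2 fold change 0.19), -0.19 to 0.36 for IL1B (0.09), -0.25 to 0.43 for IL1RN (0.09), -0.17 to 0.12 for IL18 (-0.03), -0.20 to 0.26 for IL1R1 (0.03) and -0.19 to 0.25 for IL18BP (0.03). Without LPS it was -0.76 to 0.29 for IL1A, -0.24 to 0.28 for IL1B, -0.14 to 0.14 for IL1RN, -0.05 to 0.31 for IL18, -0.34 to 0.10 for IL1R1 and -0.25 to 0.14 for IL18BP.

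**Figure D4:**
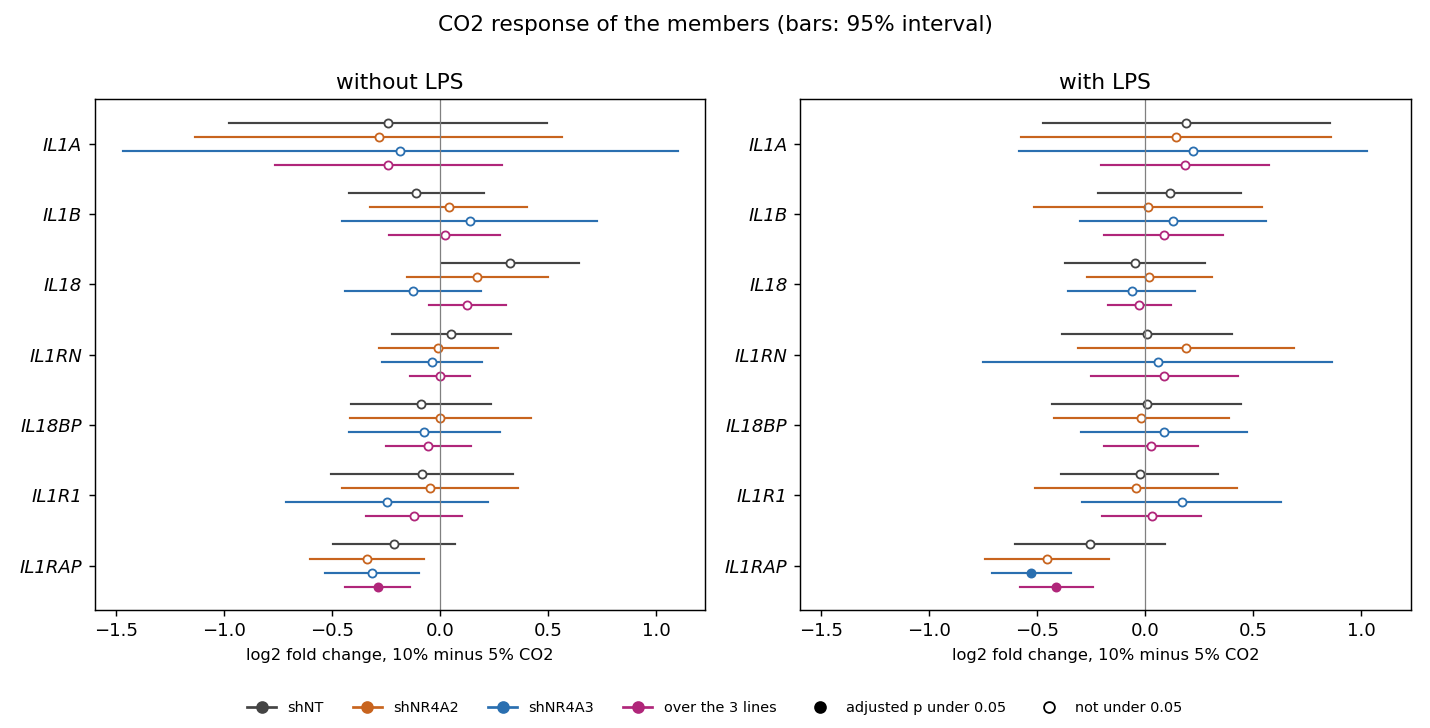
Log2 fold change at 10% against 5% CO2 of each tested member within the lines and over the 3 lines, without LPS (left) and with LPS (right); points are estimates, bars 95% intervals, and filled points have an adjusted p under 0.05. IL1RAP lies below 0 in every estimate, from -0.53 to -0.21.

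Interactions asked whether a response differed between lines or between CO2 levels. By edgeR 0 of the 7 tested members were called in any of the 12 interactions, and by DESeq2 also 0. For the difference of the LPS response from that of shNT cells, the number with an unadjusted p under 0.05 by edgeR was 0 and 1 in shNR4A2 cells at 5% and 10% CO2 and 1 and 1 in shNR4A3 cells (DESeq2: 0, 1, 1 and 2). The values were 0.83 for IL1B in shNR4A3 cells at 5% CO2 (SE 0.259, unadjusted p = 0.008205, adjusted p = 0.9996) and, for IL18 at 10% CO2, 0.46 in shNR4A2 (SE 0.164, unadjusted p = 0.01188, adjusted p = 0.9372) and 0.46 in shNR4A3 cells (SE 0.187, unadjusted p = 0.02388, adjusted p = 0.5457). The share of all genes called was 0% in both lines at 5% CO2, and 0.0451% in shNR4A2 and 0.198% in shNR4A3 cells at 10% CO2.

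For IL1RN the difference of LPS responses from shNT cells was 0.10 to 0.51 on the log2 scale, with unadjusted p of 0.08856 to 0.6926, so the higher IL1RN of the knockdown lines was not shown to depend on LPS. For IL1RAP the CO2 response of the knockdown lines differed from that of shNT cells by -0.25 to -0.11, with unadjusted p of 0.1747 to 0.5625, and the fall at 10% CO2 with LPS differed from that without LPS by -0.12 over the 3 lines (SE 0.115, adjusted p = 0.7128). The difference of CO2 responses between lines had 0% of genes called in all 4 comparisons, and 1 member value had an unadjusted p under 0.05 by edgeR and by DESeq2, that of IL18 in shNR4A3 cells without LPS (-0.46, SE 0.21, unadjusted p = 0.04091). The LPS response at 10% against 5% CO2 was called in 0.0226% of genes in shNT cells, 0% in shNR4A2 and shNR4A3 cells and 2.93% over the 3 lines. None of the 28 member values in these 4 comparisons had an unadjusted p under 0.05 by edgeR or DESeq2.

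Most other genes of the family were too low to test. Of 14 further ligands and receptors 5 passed the filter (IL33, IL36G, IL18R1, IL18RAP and SIGIRR), and 4 of these 5 were called as higher with LPS in each of the 6 comparisons, beside 8.91% to 20.6% of all tested genes. Their median log2 fold change was 4.56 to 6.70, beside -0.015 to 0.003 over all genes. In shNT cells at 5% CO2 the largest were IL36G, an IL-36 ligand (5.87, SE 1.298, adjusted p = 0.00405), and the 2 chains of the IL-18 receptor, IL18R1 (5.63, SE 0.566, adjusted p = 0.0001385) and IL18RAP (5.41, SE 0.383, adjusted p = 5.595e-06). IL36G stood at a mean of 3.038 TPM with LPS and 0.03086 TPM without. IL18R1 and IL18RAP stood at 17.06 and 37.25 TPM with LPS against 0.188 and 0.5994 TPM without. The filter on low counts used the LPS libraries too, so genes this low at rest could enter through their LPS level. The 4 of 5 called and their median are therefore a description, and no test against all genes. At 10% CO2 with LPS, over the 3 lines, IL18R1 (1.08, SE 0.259, adjusted p = 0.005582) and IL18RAP (0.66, SE 0.199, adjusted p = 0.02036) rose and SIGIRR, an inhibitory receptor of the family, fell (-0.31, SE 0.097, adjusted p = 0.019). So 2 of 5 were called as higher and 1 of 5 as lower, beside 15.3% and 15.5% of all genes, with a median of 0.60 beside 0.002 over all genes, and without LPS 0 of 5 were called by edgeR or DESeq2, with 0 at an unadjusted p under 0.05.

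Of the 14 genes of receptor-proximal signalling, all tested, 3 to 5 were called as higher and 3 to 5 as lower with LPS, beside 8.91% to 20.6% and 9.26% to 21.5% of all tested genes. Their median log2 fold change was 0.009 to 0.085, beside -0.015 to 0.003 over all genes. In shNT cells at 5% CO2 the largest were the kinase IRAK2 (4.65, SE 0.177, adjusted p = 4.135e-09), the ubiquitin ligase PELI1 (1.70, SE 0.152, adjusted p = 9.573e-07) and TAB2, an adaptor of the kinase TAK1 (0.96, SE 0.083, adjusted p = 1.999e-07). At 10% CO2 with LPS over the 3 lines 3 of the 14 were called as higher and 4 as lower (15.3% and 15.5% of all genes), led by PELI2 (-0.86, SE 0.097, adjusted p = 2.412e-06), PELI3 (-0.55, SE 0.121, adjusted p = 0.001546) and MYD88 (0.29, SE 0.069, adjusted p = 0.002842). Without LPS 1 was called as higher and 5 as lower (9.18% and 8.72% of all genes). The median log2 fold change of the list with CO2 was -0.119 without and -0.039 with LPS, beside -0.002 and 0.002 over all genes.

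Of the 10 genes of processing and release 9 were tested, and 2 to 4 were called as higher and 2 to 5 as lower with LPS, beside 8.91% to 20.6% and 9.26% to 21.5% of all tested genes. Their median log2 fold change was -0.312 to -0.124, beside -0.015 to 0.003 over all genes. In shNT cells at 5% CO2 the inflammasome sensor NLRC4 (-2.24, SE 0.299, adjusted p = 3.196e-05) and CASP8 (-0.58, SE 0.097, adjusted p = 0.0003132) fell and NINJ1, which ruptures the plasma membrane in lytic death, rose (1.87, SE 0.173, adjusted p = 8.151e-05). At 10% CO2 with LPS 1 of 9 was called, NLRP3, the inflammasome sensor, which was lower (-0.60, SE 0.104, adjusted p = 0.0003944), and without LPS 1 of 9 was lower. Over all genes 15.3% were called as higher and 15.5% as lower with LPS, and 9.18% and 8.72% without it. The called share of this list with LPS lay below that of all genes, but it rests on 9 genes and the difference was not tested.

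Across the 18 LPS libraries, log2 CPM of IL1A and IL1B had a Pearson r of 0.897, IL1B and IL1RN of 0.865 and IL1A and IL1RN of 0.767, while IL1RAP had r between -0.14 and 0.201 with each other member. These libraries share replicate numbers and lines, so r is a description. The non-member genes most like IL1A were RND3 (0.939), B4GALT1 (0.932) and SAMHD1 (0.916). Those most like IL1B were RND3 (0.977), STX12 (0.958) and NAMPT (0.948). Those most like IL1RN were P2RX4 (0.983), ICAM1 (0.976) and TRAF1 (0.976), and those most like IL18 were GABBR2 (0.893), NPC1 (0.88) and HEY1 (0.872).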

How the data were processed

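RNA was measured in 36 libraries of THP-1 cells, 3 in each of 12 conditions taken from the sample labels. Per the study's methods and the submitters' processing notes, the counts per gene that the authors deposited came from Subread v.1.5.2 (featureCounts) after trimming by Trimmomatic v.0.36 and alignment by STAR v.2.5.2b, with GRCh38 as the build, and are whole numbers without normalization. Not given in the sources used here are the annotation release, the strand setting and the unit counted (read or fragment). Symbols were matched by Ensembl ID for 56410 IDs (98.1%). The files' counts ranged from 16171161 to 23929138 per library, which leaves IL1R2 and unstimulated IL1A limited by counting error.

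Each of 34 comparisons was fitted on its own libraries by edgeR (4.0.16, R 4.3.3) with TMM factors and a robust quasi-likelihood F test, after filterByExpr (minimum count 10, minimum total 15) over all 36 libraries, which left 17720 genes. P-values were Benjamini-Hochberg adjusted over these genes, and each SE was obtained as the log2 fold change over √F. The study's methods use DESeq2, and DESeq2 1.42.0 served here as an alternative, beside RLE factors, library size only, no filter, a filter at 1 CPM, a replicate block, 1 fit to all libraries, an adjusted p of 0.01 and leaving out each library. With 3 libraries against 3 the smallest exact permutation p is 0.1, so single-gene permutation tests were not used. TPM was computed from counts and the files' gene lengths. The size of the estimated fold changes was checked on simulated counts of independent libraries. That check did not cover correlation between same-numbered libraries.

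Same-numbered libraries were taken as paired where every correlation of their deviations from the condition means was over 0.1, which held in 14 of 34 comparisons (5 of 6 LPS responses with r from 0.152 to 0.613, 1 of 6 CO2 responses with r from 0.461 to 0.609, 7 of 8 line comparisons with r from 0.276 to 0.726, and 1 of 4 interactions of line and LPS with r from 0.224 to 0.567). The pairing thus comes from the data, since the labels give only the numbers. A block chosen in this way can make the p-values of the blocked fits too small.

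The members and gene lists were chosen with earlier results of these data known. Every member is given in every comparison. Of each of 3 lists (other family members, receptor-proximal signalling, processing and release) the counts called are given, with the 3 called genes of largest absolute log2 fold change in the LPS response of shNT cells at 5% CO2 and in the CO2 response over the 3 lines with LPS. The 3 non-member genes with the highest Pearson r over the 18 LPS libraries are named for IL1A, IL1B, IL1RN and IL18.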

Additional observations from a re-analysis of the deposited data

Results flagged for a closer look

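IL18 at 10% CO2 was marked because its LPS response had opposite signs in shNT and shNR4A2 cells. All 3 shNT libraries with LPS (9.624, 8.988 and 8.841 CPM) lay below all 3 without it (11.32, 10.46 and 11.69 CPM), and all 3 shNR4A2 libraries with LPS (12.37, 13.12 and 12.76 CPM) lay above all 3 without it (10.75, 11.71 and 11.39 CPM). Of all tested genes, 23.2% were lower in every shNT library with LPS at 10% CO2 and 22% higher in every such shNR4A2 library. The log2 fold changes differed by 0.462. Neither response was called (-0.28, adjusted p = 0.1308 and 0.18, adjusted p = 0.2768), and the test of the difference gave 0.46 (SE 0.164, unadjusted p = 0.01188) with an adjusted p of 0.9372 by edgeR's quasi-likelihood test. With library size as the only scaling the shNT response was -0.50.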

How the results depend on the processing

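Of 28 member values called, all 28 kept their sign under each of the 8 alternatives. RLE factors called all 28, the filter at 1 CPM all 28 among 31, no filter 27 among 33, library size only 26 among 32, DESeq2 26 among 31, 1 fit to all libraries 25 among 29, the replicate block all 28 among 52, and an adjusted p of 0.01 kept 20. IL1A and IL1B in the LPS responses and IL1RAP in the CO2 response over the 3 lines were called under every alternative and in every fit that left out a library. IL1B, IL18BP and IL1R1 calls near the threshold were not, and the cause was not tested. Some of these fits also lost IL1RN in shNR4A3 against shNT cells at 10% CO2, both without and with LPS. The same was true of IL18 in shNR4A2 cells at 10% CO2 with LPS and of IL1RAP in the CO2 response of shNR4A3 cells with LPS. IL1RN in the LPS response of shNR4A3 cells at 10% CO2 was lost at an adjusted p of 0.01. Library size only moved the median of all genes by -0.253 to -0.181 in the LPS responses.

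Within-line CO2 responses had 1 member called in all (0 by line except IL1RAP in shNR4A3 cells with LPS). Without a filter there were 3, with 1 each in shNR4A3 cells without LPS and shNR4A2 cells with LPS, and at an adjusted p of 0.01 there were 0. Line comparisons had 10 in all and 5 at an adjusted p of 0.01, where shNR4A2 cells at 10% CO2 with LPS had 1 in place of 3 and shNR4A3 cells 0 in place of 3. At 0.01 the LPS response of shNR4A3 cells at 10% CO2 had 2 in place of 4. In shNR4A2 cells at 10% CO2 without LPS 2 were called in place of 1 under library size only, no filter and DESeq2. At 5% CO2 with LPS both lines had 0 called, and 1 under library size only, no filter and the filter at 1 CPM, while 1 fit and DESeq2 gave 2 in shNR4A2 and 1 in shNR4A3 cells. In shNR4A3 cells at 10% CO2 without LPS 1 fit gave 0 in place of 1.

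The replicate block raised the line comparisons from 10 to 25 calls and the within-line CO2 responses from 1 to 4. Of its 24 added calls 18 were in comparisons where the numbers pair the libraries and 6 where they do not. The latter were IL1RN in the LPS response of shNT cells at 5% CO2 (0.34), IL1RAP in the CO2 response of shNR4A3 cells without LPS (1 member called in place of 0) and shNR4A2 cells with LPS (1 in place of 0), IL1A in that over the 3 lines with LPS (0.21, adjusted p = 0.0008215, so 2 members in place of 1), IL1B in shNR4A2 against shNT cells at 10% CO2 without LPS (2 in place of 1) and IL1B in the interaction of shNR4A3 and LPS at 5% CO2 (0.80, 1 in place of 0). In no such comparison did every library correlate best with its own number. The same was true of the LPS response of shNR4A2 cells at 10% CO2, which was taken as paired (lowest r 0.152). The lowest r was close to the cut in the LPS response of shNT cells at 5% CO2 (0.074). It was also close in the CO2 response of shNR4A3 cells without LPS (0.084). Where the numbers pair, the block gave 1 member in the CO2 response of shNR4A2 cells without LPS, 2 in both lines at 5% CO2 without LPS, 5 and 4 in shNR4A2 and shNR4A3 cells at 5% CO2 with LPS and 5 in shNR4A2 cells at 10% CO2 with LPS. It changed no other count by over 1.5 times and lost no call.

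Leaving out 1 library gave 0 to 1 members in the CO2 responses of shNR4A3 cells without and with LPS and of shNR4A2 cells with LPS. It gave 1 to 2 in shNR4A2 against shNT cells without LPS at either CO2 level, 0 to 1 in both lines at 5% CO2 with LPS, 1 to 3 in shNR4A2 and 0 to 2 in shNR4A3 cells at 10% CO2 with LPS. Counts in the other comparisons moved by at most 1. Low counts limit IL1R2, with 0 to 12 per library, and IL1A without LPS, with 3 to 26.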
